A study of Mus musculus with 24 samples.

Results

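Wild-type (WT) mouse cortical neurons treated with BDNF for 24 h were compared with neurons of the same cultures treated for 30 min. This took 8 of the 24 libraries of the series, 4 at 24 h and 4 at 30 min, chosen by the genotype, treatment and time in their labels. The neurons were primary cells from E16.5 embryos, kept for 12 days in culture, and each of the 4 cultures (codes WT2C, WT2D, WT2E and WT2F, here cultures 1 to 4) gave 1 library per time. No source used here states the dose of BDNF. The 4 untreated WT control libraries of the same cultures served to say which transcripts BDNF had raised by 30 min. Libraries labelled H2BE-KO/mCherry-KI (KO below), by the label a knockout of the gene of the histone variant H2BE with a knocked-in mCherry reporter, were used in 2 comparisons only, with 4 libraries each for BDNF 24 h, BDNF 30 min and control. The labels describe the 4 samples of a group as biological replicates.

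BDNF is a neurotrophin that neurons release; it binds the receptor kinase TrkB, which activates the MAP kinase, PI3 kinase and phospholipase C pathways. The earliest transcripts of such a stimulus, the immediate early genes, need no new protein for their transcription, and many of their RNAs are short-lived. A later wave encodes secreted peptides, proteases, synaptic proteins and inhibitors of the signalling cascade itself.

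Values are CPM, counts scaled to a common library size, in the order of cultures 1 to 4, and changes are log2 fold changes ± SE. A gene is called changed at a Benjamini-Hochberg adjusted p under 0.05 over 15892 genes in edgeR's quasi-likelihood test with the culture as a term of the model. Library totals were 35342145 to 43651335 counts at 24 h, 41480537 to 62135270 at 30 min and 32452761 to 44903976 in control. The 30 min library was the deeper of both BDNF libraries in every culture. The share of counts in mitochondrially encoded genes was 4.18% to 4.74% at 24 h and 4.75% to 6.4% at 30 min, ranges that do not overlap. The neuronal marker Rbfox3 was present in all of them. In bulk RNA, fewer cells of a type and less RNA per cell cannot be told apart.

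At 24 h, 3739 genes were higher (23.5% of those tested) and 3514 were lower (22.1%) than at 30 min. A change of at least 2-fold was reached by 584 of the higher and 549 of the lower genes, and one of at least 4-fold by 175 and 97. All 4 libraries at 24 h lay above all 4 at 30 min in 2227 of the higher genes, and below them in 1949 of the lower genes. Without the culture term the model called 4584 genes in place of 7253, and cultures 3 and 4 alone gave 3535.

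Against control, 179 genes were higher at 30 min (1.13%) and 4 were lower (0.0252%), while 4028 were higher (25.3%) and 3641 lower (22.9%) at 24 h. The 179 early genes took several courses. At 24 h, 52 of them (29.1%) were lower than at 30 min and no longer higher than control, 39 (21.8%) were lower than at 30 min and still higher than control, 45 (25.1%) were higher than control with no called change since 30 min, and 42 (23.5%) had gone higher still. The remaining gene, Zfand5, named after its values were seen, passed neither later test. Another 3213 genes rose and 2954 fell at 24 h against both 30 min and control without a call at 30 min. The early genes were chosen with the 30 min libraries, which also enter the later comparison, so these counts are a description. Leaving out any 1 culture lowered the number of early genes that returned, were partly retained, stayed or rose further, and of both late classes. It gave 120 to 148 genes called at 30 min in place of 183, 43 to 47 that returned and 16 to 30 that rose further. The fewest calls at 30 min and the fewest further rises came without culture 2.

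The 4 largest falls among the named genes were those of inducible transcription factors, Fosb, Egr3, Egr4 and Npas4. Fosb, which encodes a partner of JUN proteins in the AP-1 complex, had 5.61, 13.4, 22.01 and 7.38 CPM at 24 h, against 193, 262, 265 and 255 CPM at 30 min. It was lower at 24 h in every culture and the groups were far apart, with the library of culture 1 the lowest at both times. Its controls lay at 3.31, 5.198, 4.76 and 2.62 CPM. The change was -4.45 ± 0.19 (adjusted p = 6.86e-11), a 21.9-fold fall. Npas4, a neuronal activity-dependent factor that regulates inhibitory synapses, had 20.2, 34.4, 47.4 and 17.9 CPM at 24 h, against 327, 759, 826 and 238 CPM at 30 min. Cultures 2 and 3 were the highest at both times, and the control libraries, at 19.6, 29.2, 50.2 and 7.56 CPM, overlapped those at 24 h. Its change was -4.09 ± 0.15 (adjusted p = 9.51e-12). Nr4a1, an orphan nuclear receptor, had 31.1, 46.5, 49.5 and 24.6 CPM at 24 h, against 392, 619, 598 and 432 CPM at 30 min. Its controls lay at 30.6, 44.6, 48.5 and 15.05 CPM, close to the 24 h values in each culture but the fourth. The change since 30 min was -3.79 ± 0.14 (adjusted p = 9.06e-12).

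The EGR family of zinc finger factors split by how far it returned. Egr3 had 4.200, 2.801, 4.92 and 4.03 CPM at 24 h, against 71.2, 59.7, 59.01 and 119 CPM at 30 min, a change of -4.24 ± 0.17 (adjusted p = 2.02e-11). The libraries at 24 h and in control overlapped (-0.22 ± 0.19, adjusted p = 0.347). Egr4 had 3.45, 3.46, 4.43 and 4.05 CPM at 24 h, against 51.04, 61.8, 63.5 and 116 CPM at 30 min, a change of -4.196 ± 0.14 (adjusted p = 3.56e-12). It remained above its controls of 1.32, 1.45, 1.31 and 3.13 CPM in each culture, by 1.13 ± 0.18 (adjusted p = 7.40e-05). Egr2, named after its values were seen, had 36.2, 17.1, 22.3 and 20.1 CPM at 24 h, against 205, 149.9, 147 and 262 CPM at 30 min, and kept 11.9% ± 4.78 of its rise. Egr1 had 217, 145, 154 and 145 CPM at 24 h, against 1160.0, 1187, 1198 and 1252 CPM at 30 min. All libraries at 24 h were well below those at 30 min, the one of culture 1 being the highest, and all were above the controls of 39.3, 35.9, 20.6 and 47.4 CPM. Its change was -2.87 ± 0.15 (adjusted p = 4.68e-10) and it was still 2.22 ± 0.15 above control (adjusted p = 9.15e-09). Fos, the partner of JUN that defines AP-1, had 56.7, 97.9, 118 and 61.6 CPM at 24 h, against 635, 901, 927 and 684 CPM at 30 min (-3.29 ± 0.16, adjusted p = 1.81e-10). Junb, a JUN family member, had 9.62, 13.3, 12.1 and 16.2 CPM at 24 h, against 89.03, 179, 181 and 265 CPM at 30 min (-3.74 ± 0.16, adjusted p = 6.86e-11). Both were still called above control, by 0.78 ± 0.15 (adjusted p = 0.0004503) and 0.65 ± 0.17 (adjusted p = 0.005896), although the ranges of 24 h and control overlap in both.

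Jun, Ier2, Tob1 and the other NR4A receptors, named after their values were seen, span the range between full return and partial retention. Jun had 95.8, 116, 105 and 96.00 CPM at 24 h, against 218, 198, 176 and 255 CPM at 30 min, all 24 h libraries below those at 30 min, and kept 33.98% ± 12.2 of its rise. Ier2, an immediate early regulator, kept 10.2% ± 2.63. Tob1, an antiproliferative relative of BTG2, had 12.5, 13.2, 15.5 and 18.5 CPM at 24 h, against 85.8, 71.7, 66.5 and 89.1 CPM at 30 min and ended below control (-0.43 ± 0.11, adjusted p = 0.00291). Nr4a2 and Nr4a3 had smaller rises than Nr4a1, 0.88 ± 0.07 and 0.97 ± 0.12 against 3.96 ± 0.14, and all 3 receptors returned.

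**Figure D1:**
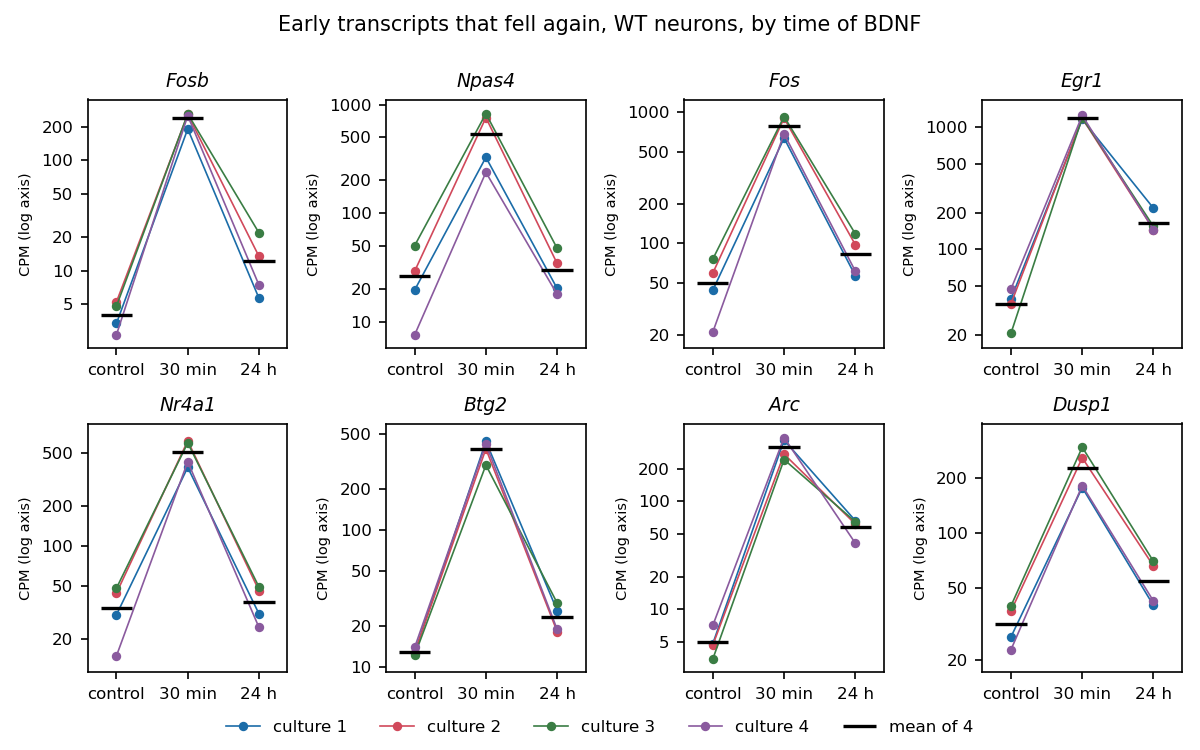
CPM on a log axis of 8 early transcripts in control, 30 min and 24 h WT libraries; points joined by a line belong to 1 culture and black bars are means of 4 cultures. All 8 genes peaked at 30 min in every culture, and Npas4 and Nr4a1 came back to the level of their controls while Egr1 and Arc did not.

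The start-site sequences of 4 early genes with some of the largest falls are shown, Npas4 and Nr4a1 from the genes that returned and Fosb and Egr4 from those partly retained, because these genes share a sharp peak at 30 min. Each is the RefSeq window of 250 bases before to 50 after the annotated start on GRCm38.p6, read 5′ to 3′ on the strand of the gene. They are chr19:4989922-4990221 (minus strand) for Npas4, chr15:101266596-101266895 (plus strand) for Nr4a1, chr7:19309996-19310295 (minus strand) for Fosb and chr6:85513540-85513839 (minus strand) for Egr4. Capitals mark matches to the motifs searched on both strands: the CArG box of serum response factor, the cAMP response element TGACGTCA, the AP-1 site TGANTCA and the EGR site GCGNGGGCG, none of which contains another.
Npas4: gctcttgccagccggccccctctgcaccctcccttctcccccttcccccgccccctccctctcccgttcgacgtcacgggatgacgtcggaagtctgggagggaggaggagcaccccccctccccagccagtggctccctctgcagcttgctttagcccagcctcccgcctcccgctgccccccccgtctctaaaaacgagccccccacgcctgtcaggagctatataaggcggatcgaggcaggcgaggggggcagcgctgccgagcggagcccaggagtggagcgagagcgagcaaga
Nr4a1: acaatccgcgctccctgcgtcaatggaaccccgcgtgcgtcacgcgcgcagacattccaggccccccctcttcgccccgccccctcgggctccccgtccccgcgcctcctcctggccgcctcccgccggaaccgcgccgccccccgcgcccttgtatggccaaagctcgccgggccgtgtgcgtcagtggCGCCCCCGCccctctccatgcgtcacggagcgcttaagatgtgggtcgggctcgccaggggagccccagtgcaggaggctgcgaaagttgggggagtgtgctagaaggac
Fosb: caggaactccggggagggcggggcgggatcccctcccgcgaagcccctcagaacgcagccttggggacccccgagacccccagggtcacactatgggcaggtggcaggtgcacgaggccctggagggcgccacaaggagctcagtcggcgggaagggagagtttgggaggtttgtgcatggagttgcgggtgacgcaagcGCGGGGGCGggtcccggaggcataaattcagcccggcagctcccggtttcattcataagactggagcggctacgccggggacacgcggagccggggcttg
Egr4: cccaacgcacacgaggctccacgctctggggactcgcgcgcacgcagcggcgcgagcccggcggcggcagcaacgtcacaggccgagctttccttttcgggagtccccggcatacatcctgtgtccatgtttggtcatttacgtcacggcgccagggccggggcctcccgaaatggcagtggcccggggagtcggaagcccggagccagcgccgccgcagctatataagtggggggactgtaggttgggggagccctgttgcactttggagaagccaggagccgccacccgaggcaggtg
The windows of Nr4a1 and Fosb held 1 EGR match each, which began 60 and 50 bases before the start. No match lay in those of Npas4 and Egr4, and this says only that these letters are not in these windows. Of all 32817 promoters of the table, 1.63% held a CArG box, 1.79% the cAMP response element, 7.81% an AP-1 match and 5.56% an EGR match. In the 11596 promoters matched to genes tested here, the shares were 1.39%, 3.24%, 4.63% and 10.9% in the same order. A comparison of the classes was void, since only 78.8% of the genes that returned and 69.2% of those partly retained matched an entry by symbol, below the 80% required.

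Of the 35 rapid transcription factor genes tested, 25 were lower at 24 h (71.4%, against 22.1% of all genes). Another 4 were higher (11.4%, against 23.5%) and 6 did not pass. The median change of the list was -0.86 against 0.0049 over all genes tested. The list holds 29 of the early genes, of which 10 returned, 14 were partly retained, 3 stayed and 2 rose further. Of the 35 tested genes, 22 were above control at 24 h, as were 25.3% of all genes. Summed over the list, the level was 1433 to 2074 CPM at 24 h and 4790 to 6663 CPM at 30 min. This list and those below were chosen with earlier results of these data known, so their counts only describe.

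Other rapid genes, called rapid effectors below, do not encode transcription factors. Btg2, an antiproliferative regulator of mRNA deadenylation, had 25.8, 18.1, 29.2 and 18.8 CPM at 24 h, against 442, 389.7, 297 and 423 CPM at 30 min. The groups were far apart and the change was -4.08 ± 0.14 (adjusted p = 4.64e-12). Ccn1, a secreted matrix protein that binds integrins, had 15.8, 30.4, 39.1 and 10.8 CPM at 24 h, against 324, 386, 436 and 208 CPM at 30 min, with cultures 2 and 3 the highest at both times (-3.92 ± 0.12, adjusted p = 1.90e-12). Gadd45b, a stress-inducible protein linked to DNA demethylation, had 3.18, 4.76, 2.92 and 2.602 CPM at 24 h, against 18.9, 21.3, 11.2 and 21.01 CPM at 30 min. It changed by -2.42 ± 0.18 (adjusted p = 2.35e-08) and was not called against control at 24 h (0.43 ± 0.20, adjusted p = 0.0885).

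Arc stayed well above its untreated level. Arc, a synaptic protein that drives endocytosis of AMPA receptors, had 4.79, 4.64, 3.45 and 7.08 CPM in control, 369, 274, 244 and 390.2 CPM at 30 min and 66.2, 61.6, 64.5 and 40.9 CPM at 24 h. All 4 libraries at 24 h were below those at 30 min and far above their own control. The change was -2.43 ± 0.16 since 30 min (adjusted p = 7.08e-09) and 3.55 ± 0.20 over control (adjusted p = 9.50e-10). Dnajb1, a co-chaperone of HSP70, had 64.4, 63.9, 63.03 and 57.7 CPM at 24 h, against 164, 153, 157 and 169 CPM at 30 min, tightly grouped at both times (-1.37 ± 0.06, adjusted p = 1.21e-10). Of the 35 rapid effector genes, 18 were lower at 24 h (51.4%, against 22.1% of all genes). Another 8 were higher (22.9%, near the 23.5% of all genes) and 9 did not pass, with a median of -0.48.

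The share of the rise in CPM over control that was still present at 24 h was computed within each culture for the 179 early genes. All of them were above control at 30 min in every culture. The median gene kept 62.5% of its rise, with medians of 56.9%, 63.5%, 57.5% and 43.2% in cultures 1 to 4. Genes that returned kept a median of -6.95%, those partly retained 31.3%, those that stayed 94.7% and those that rose further 397%. In 51 genes the share was under 10%, and in 62 it was over 100%. Among the rapid genes Nr4a1 kept 0.731% ± 1.04 (SD, n = 4 cultures), Npas4 1.26% ± 2.19, Fosb 3.23% ± 2.41, Fos 4.45% ± 1.67, Egr1 11.2% ± 3.39, Dusp1 11.4% ± 1.85 and Arc 18.1% ± 7.07. Nr4a1 and Npas4 lay within 1 SD of a full return, and Arc, Egr1, Fos and Dusp1 were more than 2 SD above it. These shares depend on the scale. As shares of the log2 rise, computed on log2(CPM + 0.05), they averaged 4.39% for Nr4a1, 7.25% for Npas4, 24.4% for Fosb, 19.1% for Fos, 43.6% for Egr1, 26.98% for Dusp1 and 59.02% for Arc.

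**Figure D2:**
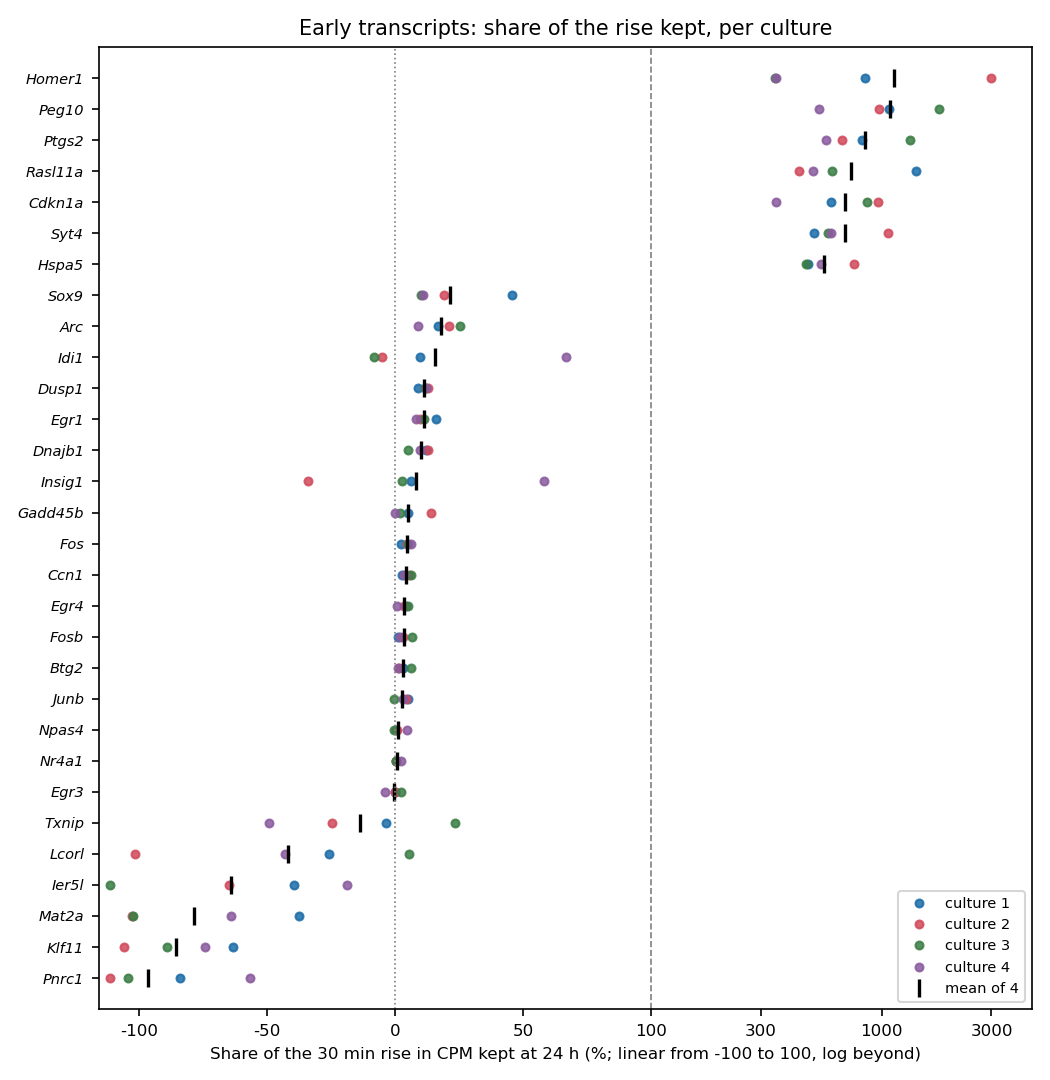
Share of the 30 min rise in CPM over control that was kept at 24 h, in percent, for the early genes named by rule. Coloured points are the 4 cultures and black ticks their means, with 0% (dotted) a full return and 100% (dashed) an unchanged rise. Early genes named after their values were seen, such as Egr2, Jun and Plk2, are not shown. Egr3, Nr4a1, Npas4 and Fosb lie near 0%, and Pnrc1, Klf11 and Mat2a lie below it.

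Some early transcripts ended below the untreated level. Pnrc1, a nuclear receptor coregulator, had 14.4, 16.02, 17.3 and 15.5 CPM in control, 21.1, 20.6, 23.9 and 25.3 CPM at 30 min and 8.73, 9.83, 10.001 and 9.96 CPM at 24 h. Every culture was highest at 30 min and lowest at 24 h. The change was -1.24 ± 0.08 since 30 min (adjusted p = 4.32e-09) and -0.71 ± 0.08 against control (adjusted p = 1.79e-06), a share kept of -96.7% ± 33.6. Klf11, a Krüppel-like repressor, had 22.8, 24.3, 21.8 and 21.8 CPM in control, 33.9, 32.6, 30.3 and 31.9 CPM at 30 min and 15.7, 14.7, 14.2 and 14.3 CPM at 24 h, with the same order in all 4 cultures (-0.62 ± 0.07 against control, adjusted p = 8.55e-07). Mat2a, which makes the methyl donor S-adenosylmethionine, had 139, 116, 124 and 129 CPM at 24 h, against 177, 165, 157 and 175 CPM at 30 min, and was -0.19 ± 0.05 against control (adjusted p = 0.00263). Ier5l, an immediate early response gene, was also lower than control at 24 h (-0.67 ± 0.18, adjusted p = 0.00503). Lcorl, a transcriptional regulator gene, kept -41.8% ± 46.04 and was not called against control (adjusted p = 0.218). Txnip, the thioredoxin-binding protein that limits glucose uptake, had 4.67, 3.14, 3.62 and 2.83 CPM at 24 h, against 21.3, 12.7, 4.86 and 15.4 CPM at 30 min, and its low 30 min value in culture 3 lay just above the 24 h value of culture 1 (-1.81 ± 0.24, adjusted p = 1.31e-05). It was not called against control at 24 h (-0.50 ± 0.25, adjusted p = 0.114).

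Early transcripts that stayed up between 30 min and 24 h numbered 45, and those shown here were named after their values were seen, from the members of the gene lists. Ppp1r15a, a regulatory subunit that directs dephosphorylation of eIF2α, had 33.7, 42.7, 54.1 and 25.2 CPM in control, 62.5, 72.01, 78.2 and 72.2 CPM at 30 min and 75.5, 85.1, 98.7 and 69.04 CPM at 24 h. All libraries at 30 min and 24 h were above all controls, and it kept 142% ± 37.6. Adamts1, a secreted metalloprotease, had 37.8, 49.04, 83.5 and 29.1 CPM in control, 71.8, 118, 196 and 102 CPM at 30 min and 70.04, 134, 197 and 72.4 CPM at 24 h and kept 94.7% ± 26.9, with a change of -0.09 ± 0.10 since 30 min (adjusted p = 0.517). Plk2, a kinase of synaptic scaling, had 138, 147, 151 and 155 CPM in control, 241, 249, 242 and 254 CPM at 30 min and 263, 283, 264 and 223 CPM at 24 h and kept 112% ± 28.9. Per1, a repressor of the circadian clock, had 90.5, 117, 134 and 88.7 CPM at 24 h, against 65.8, 106, 119 and 103 CPM at 30 min (0.13 ± 0.10, adjusted p = 0.328), and Rgs4, a regulator of G protein signalling, had 715, 1090.2, 1166 and 716 CPM at 24 h, against 662, 939.5, 1245 and 525 CPM at 30 min (0.17 ± 0.07, adjusted p = 0.0674). The ranges of 24 h and 30 min overlap in all 5 genes, and the missed threshold does not show that their levels were equal.

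Of the 42 early genes that rose further, Homer1, a scaffold of metabotropic glutamate receptors, had 102, 97.1, 110.0 and 91.3 CPM in control, 117, 100.2, 144 and 122 CPM at 30 min and 225, 189, 227 and 199 CPM at 24 h. All 4 libraries at 24 h were above all 4 at 30 min, whereas those at 30 min overlapped the controls. The change was 0.26 ± 0.06 at 30 min (adjusted p = 0.0416, near the threshold) and 0.81 ± 0.06 from there to 24 h (adjusted p = 2.14e-08). The counts are per gene and do not separate its short and long transcripts. Syt4, a synaptotagmin of dense core vesicles, had 690.1, 659, 927 and 777 CPM at 24 h, against 383, 347, 504 and 398 CPM at 30 min, with culture 3 the highest at both times (0.91 ± 0.04, adjusted p = 1.33e-10). Cdkn1a, the cell cycle inhibitor p21, had 204, 230.1, 218 and 173 CPM at 24 h, against 99.4, 94.7, 88.2 and 97.4 CPM at 30 min (1.11 ± 0.07, adjusted p = 1.82e-09).

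Ptgs2, the inducible prostaglandin synthase COX-2, was below 1 CPM in every control, with 0.184, 0.223, 0.833 and 0 CPM in control, 0.907, 1.31, 1.702 and 0.777 CPM at 30 min and 6.11, 7.56, 12.4 and 4.44 CPM at 24 h. The order of the 3 times was the same in all cultures (2.67 ± 0.26 since 30 min, adjusted p = 5.03e-07). Peg10, a gene of retrotransposon origin, had 162, 184, 196 and 219.6 CPM at 24 h, against 44.9, 59.04, 53.3 and 83.3 CPM at 30 min (1.69 ± 0.07, adjusted p = 4.48e-11), and Rasl11a, a small GTPase, had 15.5, 8.19, 6.43 and 13.99 CPM at 24 h, against 3.35, 3.09, 2.003 and 4.01 CPM at 30 min (1.78 ± 0.15, adjusted p = 8.33e-08). The share kept divides by a small rise at 30 min in these genes, and was 1129% ± 1255 for Homer1, 693% ± 255 for Syt4 and 695% ± 277 for Cdkn1a. A pair of transcription factors of the class had larger early rises and were named after their values were seen. Atf3, a stress-inducible CREB family repressor, had 4.48, 6.07, 5.15 and 2.47 CPM in control, 19.2, 20.1, 20.3 and 14.7 CPM at 30 min and 35.9, 39.3, 34.8 and 23.8 CPM at 24 h, and Csrnp1, a factor induced by growth signals, had 3.62, 3.93, 6.13 and 2.88 CPM in control, 8.54, 13.6, 17.98 and 11.6 CPM at 30 min and 16.9, 18.9, 23.3 and 12.8 CPM at 24 h. Both rose at each step in the means, by 0.84 ± 0.09 (adjusted p = 1.86e-06) and 0.49 ± 0.11 (adjusted p = 0.00227) between 30 min and 24 h.

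The largest rises among the named genes were in transcripts that were almost undetected before. Mmp3, the secreted matrix protease stromelysin, had 4.97, 10.9, 13.8 and 2.17 CPM at 24 h, against 0.0453, 0, 0 and 0 CPM at 30 min. It had 1216 counts in all at 24 h and 2 counts at 30 min, a CPM ratio of 749 with a 95% exact interval of 207 to 6190 that covers counting error only. Cultures 2 and 3 held the most and culture 4 the least. Serpinb2, an inhibitor of plasminogen activators, had 10.7, 7.93, 7.19 and 8.71 CPM at 24 h, against 0, 0.09603, 0.1502 and 0.0863 CPM at 30 min, even across cultures at 24 h (6.64 ± 0.41, adjusted p = 3.26e-09). Sele, the leukocyte adhesion molecule E-selectin, had 5.17, 9.22, 10.1 and 2.399 CPM at 24 h, against 0.0907, 0, 0.1502 and 0.0431 CPM at 30 min (6.64 ± 0.45, adjusted p = 8.33e-09).

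Ifi209, an interferon-inducible gene of the PYHIN family, had 14.9, 29.3, 31.2 and 15.6 CPM at 24 h, against 0.0453, 0.3201, 0.1001 and 0 CPM at 30 min, with cultures 2 and 3 the highest (7.46 ± 0.26, adjusted p = 5.30e-12). Its relatives lie side by side in the genome and reads that several of them share could have been split by the counting. Galr1, a receptor of the peptide galanin, had 10.9, 13.1, 13.1 and 7.72 CPM at 24 h, against 0.136, 0.272, 0.3004 and 0.2804 CPM at 30 min (5.48 ± 0.29, adjusted p = 6.47e-10). Tm4sf1, a tetraspanin-like surface protein, had 6.44, 8.32, 9.71 and 4.14 CPM at 24 h, against 0.272, 0.1600, 0.0501 and 0.216 CPM at 30 min (5.28 ± 0.37). Akr1b8, an aldo-keto reductase, had 11.5, 10.04, 10.2 and 10.5 CPM at 24 h, against 0.317, 0.192, 0.1502 and 0.475 CPM at 30 min, with little spread at 24 h (5.21 ± 0.26). The 24 h and 30 min libraries do not overlap in these genes, as the rule that named them required.

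The start-site windows of the first 2 late genes are shown for comparison with the early ones, again from RefSeq on GRCm38.p6, chr9:7445572-7445871 (plus strand) for Mmp3 and chr1:173630609-173630908 (plus strand) for Ifi209, with motif matches in capitals.
Mmp3: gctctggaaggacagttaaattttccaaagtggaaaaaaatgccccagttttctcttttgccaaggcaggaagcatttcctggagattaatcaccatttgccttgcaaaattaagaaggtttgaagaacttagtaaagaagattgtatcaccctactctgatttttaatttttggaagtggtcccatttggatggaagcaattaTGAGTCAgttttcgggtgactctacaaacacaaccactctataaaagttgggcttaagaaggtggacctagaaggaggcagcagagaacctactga
Ifi209: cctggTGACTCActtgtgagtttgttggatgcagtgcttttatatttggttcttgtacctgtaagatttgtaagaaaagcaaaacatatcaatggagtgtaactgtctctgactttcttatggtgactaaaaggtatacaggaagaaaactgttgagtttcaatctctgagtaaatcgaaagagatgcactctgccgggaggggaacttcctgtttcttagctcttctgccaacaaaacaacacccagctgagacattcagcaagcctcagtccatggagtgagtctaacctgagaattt
Each held 1 AP-1 match, which began 46 bases before the start in Mmp3 and 245 bases before it in Ifi209. Neither held a match to the other motifs.

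Other named late transcripts with large rises were Gimap6, a GTPase best known in lymphocytes (8.98, 14.5, 20.6 and 10.1 CPM at 24 h, against 0.589, 0.288, 0.551 and 0.604 CPM at 30 min), Lce1g, of the late cornified envelope family (4.57 ± 0.53), Bpifc, a lipid-binding protein (4.55 ± 0.33), Emp1, an epithelial membrane protein (3.65 ± 0.23), and Pla2g5, a secreted phospholipase (3.57 ± 0.38). All had an adjusted p of at most 3.33e-06. Of 18 tested interferon and Gimap genes, 5 were higher (27.8%, near the 23.5% of all genes) and 1 was lower, and 12 did not pass. The other members of that list named here were Ifi204, a PYHIN relative with 98 counts at 24 h and 6 at 30 min (ratio 20.1, interval 8.92 to 56.2), and Irf8, a transcription factor of myeloid cells (1.85, 2.27, 1.41 and 0.9505 CPM at 24 h, against 0.181, 0.176, 0.1502 and 0.733 CPM at 30 min, adjusted p = 0.00106).

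Late activity effectors, the secreted and synaptic products of stimulated neurons, were mostly higher at 24 h. Of 40 tested, 26 were higher (65%, against 23.5% of all genes), 3 lower (7.5%, against 22.1%) and 11 did not pass. The median was 0.70, and 22 of the 40 belong to the late rise class, as do 3213 of all 15892 genes tested. Nptx2, a pentraxin that clusters AMPA receptors, had 93.3, 159.9, 114 and 84.9 CPM at 24 h, against 16.4, 22.7, 19.8 and 15.01 CPM at 30 min. Its values at 30 min did not exceed the controls of 18.2, 21.1, 19.6 and 13.1 CPM by more than their spread, and all libraries at 24 h were several times higher (2.59 ± 0.08, adjusted p = 1.57e-12). Mmp10, a stromelysin like Mmp3, had 0.939, 0.581, 1.15 and 0.543 CPM at 24 h, against 0, 0.06402, 0.2003 and 0 CPM at 30 min (3.704 ± 0.68, adjusted p = 0.000321).

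Bdnf itself was not called between the times. It had 53.9, 64.6, 99.04 and 28.9 CPM in control, 50.1, 96.6, 151 and 57.3 CPM at 30 min and 67.5, 105, 123 and 78.6 CPM at 24 h, and the cultures differed more from each other than the times did. The change since 30 min was 0.18 ± 0.14 (adjusted p = 0.328), and 24 h was 0.68 ± 0.14 above control (adjusted p = 0.0009197). Its receptor gene Ntrk2 had 412, 423, 464 and 447 CPM at 24 h, against 655, 759, 738 and 682 CPM at 30 min, with all libraries at 24 h below those at 30 min (-0.70 ± 0.05, adjusted p = 2.35e-08). The neurotrophin Ntf3 had 0.4697, 0.264, 0.573 and 0.249 CPM at 24 h, against 7.07, 5.43, 4.41 and 4.66 CPM at 30 min, the largest fall of the named genes outside the early class (-3.79 ± 0.21, adjusted p = 9.44e-10). Of 37 BDNF receptor and transducer genes tested, 14 were higher (37.8%, against 23.5% of all genes) and 10 lower (27.03%, against 22.1%). They included Rps6ka2, a kinase downstream of MAP kinase, which rose (0.79 ± 0.06), and Pik3r1, the regulatory subunit of PI3 kinase, which fell (-0.82 ± 0.05).

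Feedback genes of the MAP kinase pathway were more often higher than lower at 24 h. Of 24 tested, 14 were higher at 24 h than at 30 min (58.3%, against 23.5% of all genes). Another 5 were lower (20.8%, near the 22.1% of all genes) and 5 did not pass. In this list 7 were early genes and 10 belong to the late rise class, which holds 3213 of all 15892 genes tested. Dusp1, a phosphatase that inactivates MAP kinases, fell, with 39.98, 65.8, 69.8 and 42.2 CPM at 24 h, against 178, 259, 296 and 182 CPM at 30 min (-2.08 ± 0.06, adjusted p = 4.30e-13). Etv5, an ETS transcription factor induced by the pathway, had 147, 151, 167 and 124 CPM at 24 h, against 20.9, 46.96, 74.5 and 21.1 CPM at 30 min. Spred3, an inhibitor of RAF activation, had 137, 151, 149 and 141 CPM at 24 h, against 30.96, 52.8, 74.2 and 31.7 CPM at 30 min. In both genes cultures 1 and 4 were the lowest at 30 min and the 4 cultures drew together at 24 h (2.06 ± 0.20 and 1.72 ± 0.16). Nab2, a corepressor of EGR1, had 11.7, 8.56, 4.82 and 8.67 CPM at 24 h, against 4.71, 2.897, 1.05 and 4.099 CPM at 30 min (1.48 ± 0.17, adjusted p = 2.63e-06).

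**Figure D3:**
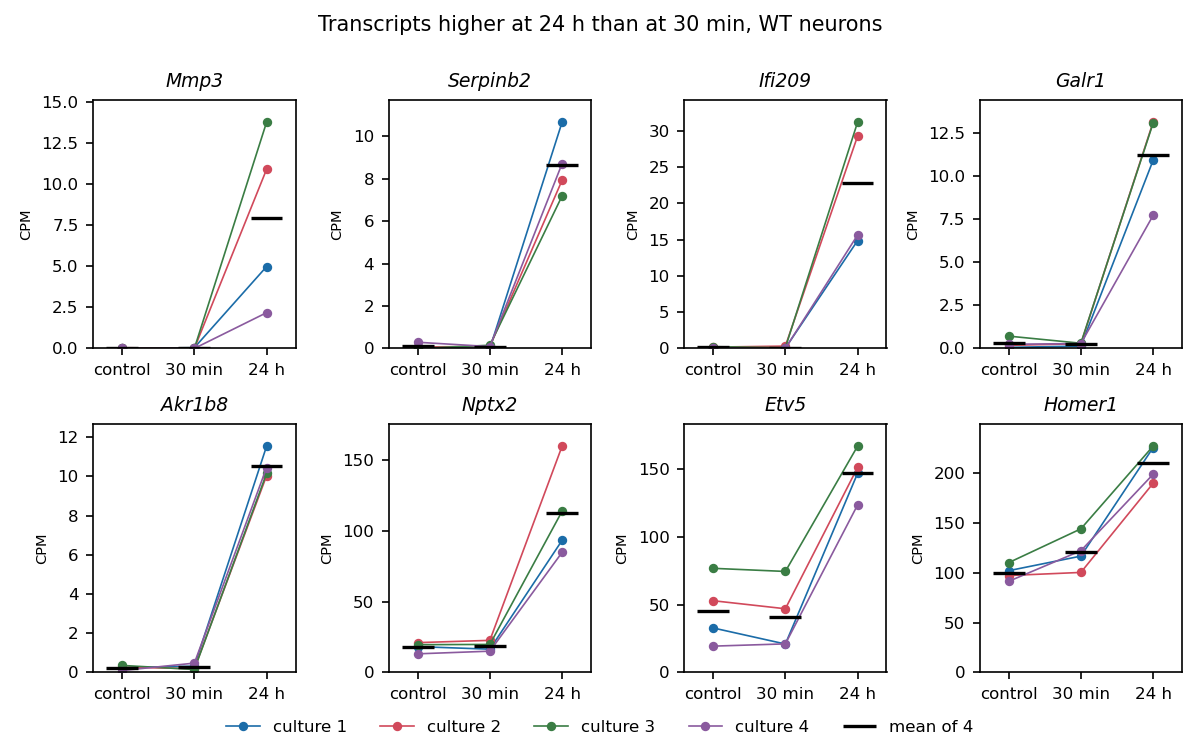
CPM of 8 transcripts higher at 24 h, in control, 30 min and 24 h WT libraries, on linear axes from 0; lines join libraries of 1 culture and black bars are means of 4 cultures. Mmp3, Serpinb2, Ifi209, Galr1 and Akr1b8 were near 0 until 30 min, and Homer1 was the one of the 8 that was also called at 30 min.

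Of 31 neuropeptide, granin and peptide processing genes, 15 were higher at 24 h (48.4%, against 23.5% of all genes) and 7 lower (22.6%, near the 22.1% of all genes). Pnoc, the precursor of nociceptin, had 60.4, 83.3, 139.9 and 108 CPM at 24 h, against 15.4, 29.5, 51.9 and 34.1 CPM at 30 min (1.62 ± 0.10, adjusted p = 2.40e-09). Pdyn, the prodynorphin gene, had 5.47, 9.25, 3.02 and 3.89 CPM at 24 h, against 1.59, 2.43, 0.651 and 2.16 CPM at 30 min (1.68 ± 0.20, adjusted p = 4.07e-06), and Npy, neuropeptide Y, had 55.1, 22.2, 28.9 and 61.01 CPM at 24 h, against 18.8, 10.7, 13.6 and 23.6 CPM at 30 min (1.27 ± 0.09, adjusted p = 1.98e-08), higher at 24 h in each culture with groups that overlap. Pcsk2, the convertase that cuts peptide precursors in the secretory pathway, fell in all cultures, with 31.8, 31.4, 34.4 and 39.4 CPM at 24 h, against 155, 158, 205 and 146 CPM at 30 min (-2.26 ± 0.08, adjusted p = 9.51e-12). Among 30 extracellular proteases and inhibitors, 10 were higher (33.3%, against 23.5% of all genes) and 7 lower (23.3%, near the share of all genes). Among them Plaur, the urokinase receptor, rose (0.746, 1.48, 0.417 and 0.453 CPM at 24 h, against 0.0453, 0.09603, 0.0501 and 0.0647 CPM at 30 min, adjusted p = 7.59e-05).

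Named genes of the late fall class had varied roles. Vcan, the matrix proteoglycan versican, had 29.4, 29.2, 31.6 and 24.7 CPM at 24 h, against 155, 154, 142 and 123 CPM at 30 min. The cultures were close to each other at each time and the change was -2.32 ± 0.06 (adjusted p = 2.23e-13), a 4.998-fold fall. Capn3, a calcium-dependent protease (-3.54 ± 0.34), Il4ra, the interleukin-4 receptor (-3.04 ± 0.22), Mme, the peptide-degrading neprilysin (-2.902 ± 0.29), Col24a1, a collagen (-2.81 ± 0.40), Fbxo32, a ubiquitin ligase subunit and FoxO target in muscle (-2.69 ± 0.36), Ada, adenosine deaminase (-2.54 ± 0.20), Vegfd, a vascular growth factor (-2.46 ± 0.35), and Synpo2l, an actin-binding protein (-2.42 ± 0.22), fell by more than 2 on the log2 scale. Apart from Il4ra and Vcan, these genes averaged under 5 CPM at 30 min, so they rest on fewer reads. Of 20 FoxO-associated genes, 5 were higher, near the share of all genes, and 9 lower (45%, against 22.1% of all genes). The lower ones included Foxo4 itself (-1.999 ± 0.25, adjusted p = 6.71e-06) and Pik3ip1, an inhibitor of PI3 kinase (-1.27 ± 0.09).

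**Figure D4:**
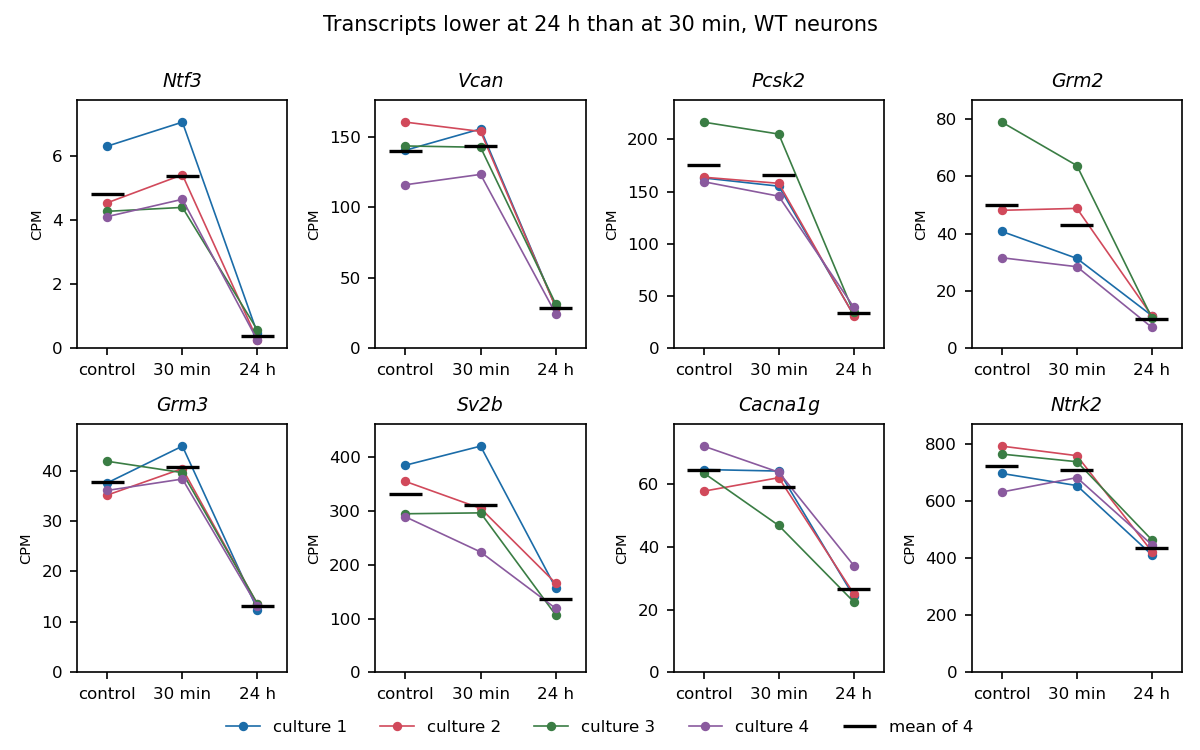
CPM of 8 transcripts lower at 24 h than at 30 min, in control, 30 min and 24 h WT libraries, on linear axes from 0; lines join libraries of 1 culture and black bars are means of 4 cultures. Control and 30 min libraries overlap in all 8 and the 24 h libraries lie below them.

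Ion channel genes fell more often than they rose. Of 54 potassium channel genes and their subunits tested, 27 were lower (50%, against 22.1% of all genes). Another 8 were higher (14.8%, against 23.5%), and the median of the list was -0.26. Kcnj2, an inward rectifier, had 3.702, 2.48, 3.59 and 5.79 CPM at 24 h, against 11.1, 21.2, 20.1 and 11.7 CPM at 30 min (-1.99 ± 0.24, adjusted p = 5.22e-06). Kcnip4, a subunit of A-type channels, had 8.76, 8.24, 4.56 and 8.49 CPM at 24 h, against 21.6, 22.2, 14.97 and 19.6 CPM at 30 min (-1.399 ± 0.10), and Kcnh5, an EAG channel, changed by -1.44 ± 0.18 with groups that overlap. Kcnip3, a related calcium-binding protein, rose in every culture, with 119.6, 105, 93.2 and 60.9 CPM at 24 h, against 47.1, 37.6, 24.6 and 26.5 CPM at 30 min (1.49 ± 0.12, adjusted p = 3.36e-08). Of 35 sodium, calcium and HCN channel genes, 18 were lower (51.4%, over the share of all genes) and 6 higher (17.1%, under it). They included Cacna1g, a T-type calcium channel, with 24.2, 25.1, 22.5 and 34.1 CPM at 24 h, against 64.2, 62.1, 46.9 and 63.9 CPM at 30 min (-1.17 ± 0.09), Cacnb3, a calcium channel β subunit (-0.82 ± 0.05), and the sodium channels Scn9a (-0.77 ± 0.20, adjusted p = 0.00453) and Scn3a (-0.66 ± 0.06). Scn9a lost its call without the culture term (adjusted p = 0.0900), with all 24 libraries in the model (adjusted p = 0.105 with the culture term) and in cultures 3 and 4 alone (adjusted p = 0.134).

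Of 54 postsynaptic glutamate genes, 21 were lower (38.9%, against 22.1% of all genes) and 15 higher (27.8%, near the 23.5% of all genes). Grm2 and Grm3, the group II metabotropic receptors that restrain release, both fell, Grm2 with 11.4, 11.3, 10.6 and 7.29 CPM at 24 h, against 31.3, 48.8, 63.7 and 28.5 CPM at 30 min (-2.03 ± 0.13) and Grm3 with 12.5, 13.5, 13.6 and 13.1 CPM at 24 h, against 44.8, 40.4, 39.6 and 38.3 CPM at 30 min (-1.63 ± 0.07, adjusted p = 8.15e-11). Grin2d, an NMDA receptor subunit of interneurons, had 10.97, 8.297, 9.06 and 31.6 CPM at 24 h, against 19.1, 21.1, 17.95 and 51.8 CPM at 30 min, and culture 4 stood above the others at both times, so the groups overlap (-0.94 ± 0.10, adjusted p = 1.26e-06). Of 48 presynaptic genes, 21 were lower (43.8%) and 10 higher (20.8%, near the share of all genes). Sv2b, a synaptic vesicle glycoprotein, had 157, 166, 107 and 119 CPM at 24 h, against 419.9, 304, 296 and 224 CPM at 30 min (-1.17 ± 0.08). Slc17a6, the vesicular glutamate transporter VGLUT2, rose, with 119, 139, 57.6 and 97.04 CPM at 24 h, against 48.3, 53.4, 25.3 and 45.7 CPM at 30 min (1.24 ± 0.06, adjusted p = 8.38e-11). Syt12, a synaptotagmin, also rose (1.18 ± 0.15).

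Of 26 GABA synapse genes, 14 were lower (53.8%, against 22.1% of all genes) and 8 higher (30.8%, against 23.5%). The transporter Slc6a11 (-1.25 ± 0.09) and the receptor subunits Gabrg1 (-0.93 ± 0.08) and Gabrd (-0.76 ± 0.14) fell, and Gabre, a subunit with under 1 CPM in every library, was higher (1.599 ± 0.59, adjusted p = 0.03696). Among 17 interneuron markers, 4 were higher and 4 lower (23.5% each way), shares like those of all genes. Gad2, the GABA-synthesising enzyme, had 241, 197, 276 and 672 CPM at 24 h, against 155, 130.5, 203 and 509 CPM at 30 min, higher at 24 h in each culture, with culture 4 far above the others (0.52 ± 0.06, adjusted p = 2.22e-06). Calb2, calretinin, fell (-0.96 ± 0.13, adjusted p = 1.36e-05). Vip had 0.442, 0.211, 0.313 and 15.9 CPM at 24 h, against 0.0453, 0.03201, 0 and 11.6 CPM at 30 min, so almost all of its counts came from culture 4 (adjusted p = 0.0312). The summed level of the interneuron markers was 1817 to 4871 CPM at 24 h and 1675 to 4935 CPM at 30 min. Without the culture term, Gad2, Calb2, Vip, Gabre and Grin2d lost their calls. Vip and Gabre lost theirs also without culture 1, 2 or 3, with adjusted p between 0.0613 and 0.178.

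Of 20 cortical neuron markers, 11 were lower at 24 h (55%, against 22.1% of all genes) and 3 higher (15%, against 23.5%). Slc17a6, given above with the presynaptic genes, is one of the higher markers of this list (1.24 ± 0.06). The sum of the list was 8349 to 8498 CPM at 24 h against 9290 to 9879 CPM at 30 min. Rbfox3, the neuronal splicing factor NeuN, had 43.8, 40.2, 35.6 and 52.3 CPM at 24 h, against 97.2, 70.9, 61.8 and 93.3 CPM at 30 min (-0.90 ± 0.06), and Neurod2, a neuronal differentiation factor, changed by -0.95 ± 0.08. Cux2, an upper layer factor, had 20.7, 10.97, 12.9 and 27.9 CPM at 24 h, against 28.7, 28.2, 25.1 and 57.3 CPM at 30 min, highest in culture 4 at both times (-0.95 ± 0.10, adjusted p = 1.62e-06; adjusted p = 0.0669 without the culture term).

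Markers of other cells were present. Of 14 astrocyte markers tested, 9 were lower at 24 h (64.3%, against 22.1% of all genes) and 0 higher, and the sum of the list of 15 was 586.9 to 657.5 CPM at 24 h against 620.1 to 758.4 CPM at 30 min, ranges that overlap, with Gjb6 at 0 in all 12 libraries. Glul, glutamine synthetase, had 55.2, 49.4, 47.97 and 64.1 CPM at 24 h, against 118, 79.5, 86.4 and 116 CPM at 30 min (-0.87 ± 0.06). Sox9, an early gene here, had 3.09, 3.59, 4.53 and 3.21 CPM at 24 h, against 4.37, 9.89, 16.9 and 6.11 CPM at 30 min (adjusted p = 0.000101), and S100b was under 1 CPM in all libraries (-1.13 ± 0.34, adjusted p = 0.0124). Of 9 tested oligodendrocyte lineage markers, 1 was higher and 1 lower, 11.1% each way and under the shares of all genes. The higher one was Mbp, myelin basic protein (67.2, 73.6, 78.6 and 41.5 CPM at 24 h, against 22.4, 25.8, 27.6 and 20.5 CPM at 30 min, adjusted p = 8.93e-09), with Opalin at 0 throughout and a list sum of 72.05 to 101.5 CPM at 24 h against 49.95 to 54.3 CPM at 30 min. The sum includes Mbp, which averaged 65.2 CPM at 24 h and 24.1 CPM at 30 min, so it does not show a rise of the other markers. The median change of the list was -0.05, and 7 of the 9 did not pass.

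Only 3 of 13 microglia markers passed the filter on low counts, of which 1 was lower and 0 higher, and the sum was 8.35 to 11.6 CPM at 24 h against 9.86 to 11.5 CPM at 30 min. Of 9 tested vascular and meningeal markers, also 11.1% each way, Rgs5, a pericyte gene, was higher (18.4, 47.01, 81.5 and 22.8 CPM at 24 h, against 9.88, 27.7, 93.03 and 12.1 CPM at 30 min, adjusted p = 0.0114) and Dcn, the proteoglycan decorin, lower (11.3, 9.49, 13.1 and 15.7 CPM at 24 h, against 22.6, 17.6, 45.3 and 36.05 CPM at 30 min, adjusted p = 2.59e-07), and the sum was 35.5 to 104.3 CPM at 24 h against 38.2 to 149.5 CPM at 30 min. Culture 3 held the most Rgs5 at both times, and the call was lost without culture 2 (adjusted p = 0.0992) or culture 4 (adjusted p = 0.0658). S100b lost its call without culture 2 (adjusted p = 0.0623) or 3 (adjusted p = 0.0819). The part of other cells in the changes above was not tested.

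Of 82 ribosomal protein genes, 39 were higher at 24 h (47.6%, against 23.5% of all genes), 1 was lower and 42 did not pass, with a median of 0.13. The examples with the largest change were Rpl22l1, a paralog of Rpl22 (67.6, 73.1, 57.6 and 75.4 CPM at 24 h, against 45.4, 44.3, 33.8 and 34.02 CPM at 30 min, 0.80 ± 0.07), Rpl36al (0.51 ± 0.08), Rpl18 (0.45 ± 0.05) and Rpl12 (0.39 ± 0.06). Many of these genes have near-identical processed copies, and no source used here states how reads shared with them were counted. Of 22 heat shock chaperones, 13 were higher (59.1%, against 23.5% of all genes) and 1, Dnajb1, was lower (4.5%, against 22.1%). Hspa5 had 990.4, 1134, 1046 and 862 CPM at 24 h, against 519.8, 535, 574 and 456 CPM at 30 min (0.95 ± 0.04, adjusted p = 6.86e-11), Hspb8, a small heat shock protein, changed by 1.897 ± 0.23, and Hspe1, the mitochondrial co-chaperonin, by 0.36 ± 0.06.

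Of 12 mitochondrially encoded genes, 7 were lower (58.3%, against 22.1% of all genes) and 0 higher. They included the complex I genes mt-Nd6 (-0.42 ± 0.06), mt-Nd4 (-0.40 ± 0.08) and mt-Nd5 (-0.31 ± 0.06), and mt-Cytb of complex III (-0.38 ± 0.07), in which 24 h and 30 min overlapped. Among 25 cholesterol synthesis genes, 6 were lower, near the share of all genes, and 3 higher (12%, against 23.5% of all genes). Insig1, a sterol-regulated protein that holds back SREBP, had 200.3, 212, 179.7 and 169 CPM in control, 323, 269, 233 and 263 CPM at 30 min and 208, 192, 181 and 223 CPM at 24 h, a peak at 30 min in every culture, and kept 8.23% ± 37.9. Hmgcs1 (-0.38 ± 0.05) and Idi1 (-0.39 ± 0.07) of the same pathway also fell, and Sc5d, a later step, rose (0.40 ± 0.05). With all 24 libraries and the culture term, Hmgcs1 (adjusted p = 0.121), Idi1 (adjusted p = 0.204) and mt-Nd5 (adjusted p = 0.0877) lost their calls, and Idi1 also without the culture term (adjusted p = 0.0579) and in cultures 3 and 4 alone (adjusted p = 0.1096). Hist2h2be, the gene named in the KO label, was not called between the times in WT (3.48, 3.49, 3.28 and 3.35 CPM at 24 h, against 4.33, 3.67, 4.01 and 4.49 CPM at 30 min, adjusted p = 0.0923). All 4 of its libraries at 24 h lay below all 4 at 30 min. Against control it was called lower at 24 h (-0.60 ± 0.13, adjusted p = 0.001001), from 4.85, 4.95, 4.82 and 6.01 CPM in the controls.

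**Figure D5:**
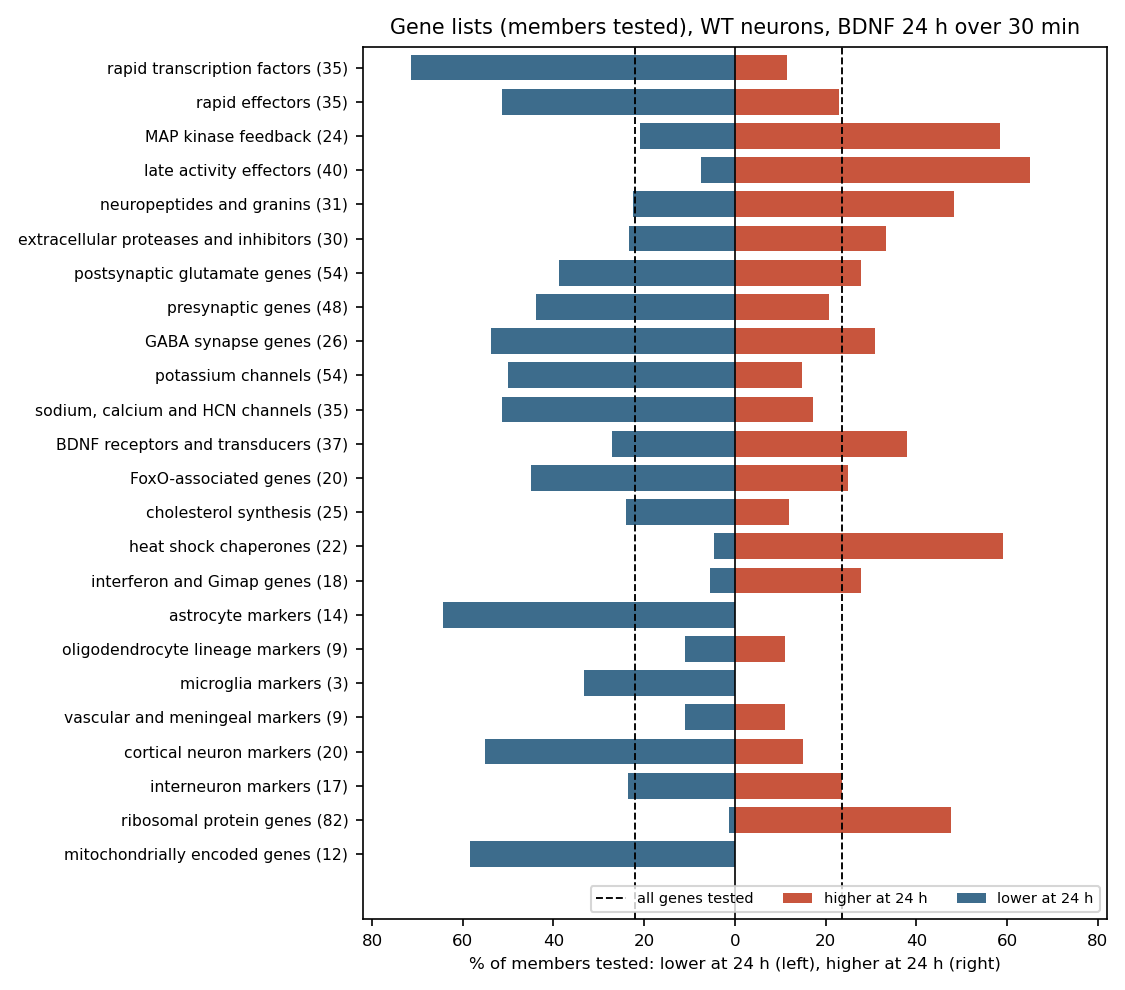
Share of the tested members of each gene list that were lower (left, blue) or higher (right, red) at 24 h than at 30 min, in percent, with the number tested in brackets; the endoplasmic reticulum stress list, drawn up after its values were seen, is not shown; dashed lines mark the share over all genes tested, 22.1% lower and 23.5% higher. Of the lists shown, rapid transcription factors extend furthest to the left and late activity effectors furthest to the right. The lists shown were chosen with earlier results of these data known, so their shares only describe.

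The KO libraries gave early genes chosen outside the WT comparison. Hist2h2be itself had 44.2 to 63.9 CPM in 11 of the KO libraries and 20.6 CPM in the 24 h library of culture KO2D, against 3.26 to 6.07 CPM in the 12 WT libraries. The counts are thus higher where the label gives a knockout, and whether they come from the altered allele was not tested. The 24 h library of KO2D also held 140 CPM of Xist, transcribed in female cells, with 64.1 CPM of the Y-linked Ddx3y, while the 30 min and control libraries of that culture held 351 and 370.1 CPM of Xist with 0.744 and 0.169 CPM of Ddx3y. The KO2D libraries had 10.9% to 21.7% mitochondrial counts. Those of KO2C had 7.52% to 9.34%, and its 30 min library had the fewest counts (19780486) and genes with a count (15323) of the series. Culture KO2C stayed in where KO2D was left out below. KO and WT cultures are separate, so genotype and culture cannot be told apart beyond the spread of 4 cultures.

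In KO, 21 of 16117 genes tested (0.13%) were higher at 30 min than in control. In WT, 20 of these 21 genes were lower at 24 h than at 30 min and 0 were higher, with a median change of -2.87, against 22.1% lower over all genes. The exception was Plk2 (0.06 ± 0.06, adjusted p = 0.405). At 24 h 16 of the 21 were still above the WT control, as were 25.3% of all genes. Without KO2D, 24 genes were chosen, of which 22 were lower in WT and 2 did not pass.

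The difference between KO and WT in the change between 24 h and 30 min was tested in 24 libraries with the culture as a term. Of 16777 genes, 400 passed (2.38%), with KO minus WT positive in 200 and negative in 200. Among them were 37 of 117 named genes. The named genes were chosen largely for their changes in WT, which favours a smaller change in KO, so the direction they share is no result of the comparison. Without the culture term 35 passed, and without KO2D 743. Of these 37 genes, 15 were early genes and 10 late falls that fell less in KO or did not fall there. The other 12 were rises that were smaller in KO. In 4 of the 37 the fitted change had opposite signs in KO and WT. Without KO2D 36 of the 37 remained past the threshold, and the difference kept its sign in all 37.

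Fosb had 46.6, 51.1, 36.6 and 41.8 CPM at 24 h, against 133, 150.4, 104 and 70.7 CPM at 30 min, in KO cultures KO2A to KO2D, with 20.6, 17.97, 21.6 and 16.4 CPM in the KO controls. The KO controls and the KO libraries at 24 h were above their WT counterparts and those at 30 min below, with no overlap. Fosb changed by -1.34 ± 0.20 in KO and by -4.504 ± 0.22 in WT, a difference of 3.16 ± 0.28 (adjusted p = 1.48e-05). Vcan had 12.2, 23.4, 24.1 and 28.4 CPM at 24 h, against 27.8, 38.5, 36.8 and 30.3 CPM at 30 min, in KO cultures KO2A to KO2D, with 26.2, 44.05, 46.6 and 28.1 CPM in the KO controls, against 140.3, 160.2, 143 and 116 CPM in the WT controls, so the KO libraries were low before BDNF. It changed by -0.63 ± 0.13 in KO and by -2.34 ± 0.13 in WT (1.71 ± 0.18, adjusted p = 8.77e-05).

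Of the late genes, Galr1 had 8.69, 7.41, 4.95 and 8.28 CPM at 24 h, against 1.62, 0.965, 0.412 and 4.202 CPM at 30 min, in KO cultures KO2A to KO2D, with 1.96, 0.714, 1.26 and 0.337 CPM in the KO controls, and changed by 2.22 ± 0.45 in KO and by 5.48 ± 0.54 in WT (-3.26 ± 0.69, adjusted p = 0.01400). Nptx2 had 169.5, 178, 194 and 164 CPM at 24 h, against 66.9, 52.3, 96.02 and 239.5 CPM at 30 min, in KO cultures KO2A to KO2D, with 81.4, 55.3, 77.4 and 56.98 CPM in the KO controls, so the 30 min library of KO2D stood far above the others. It changed by 0.82 ± 0.27 in KO and by 2.57 ± 0.28 in WT, a difference of -1.75 ± 0.37 (adjusted p = 0.01502), and of -1.19 without KO2D. The KO controls of Nptx2 and Fosb were all above the WT controls.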

How the data were processed

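Gene counts of 24 RNA-seq libraries were used as deposited by the authors, whole reads per gene with no normalization. Per the labels' protocols, polyA RNA was made into libraries with a stranded mRNA kit. The submitters' processing notes name STAR 2.7.9a, DESeq2 1.38.3, limma 3.54.2, edgeR 3.40.2 and the mouse genome mm10. The counting program, its strand setting and the annotation: not given in the sources used here. The table holds 45792 gene IDs, of which 45229 (98.8%) took a symbol from the GENCODE mouse release M21 annotation by their stable ID, and the other 563 held 0.0662% of the counts. Every column was matched to its sample by label. Intervals cover counting error only.

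The 12 WT libraries were fitted with edgeR 4.0.16 in R 4.3.3 (TMM scaling, filterByExpr with a minimum count of 10, quasi-likelihood test, Benjamini-Hochberg adjustment over 15892 genes, threshold 0.05) with culture as a term. This left 6 residual degrees of freedom. TMM factors were 0.963 to 1.02 and the common biological coefficient of variation was 8.19%. The culture codes in the labels pair the samples: deviations from the group mean correlated with r of 0.194 to 0.527 between libraries of the same culture, in 12 of 12 pairs above 0.1, and of -0.347 to 0.021 otherwise. No replicates were so alike as to be 1 library deposited in duplicate. On data simulated with known changes, 48 of 50 genes changed 1.5-fold and 26 of 50 changed 1.25-fold were recovered between 24 h and 30 min. There were 12 false calls among the 15692 genes left unchanged, of 15892. In the measured libraries 7253 genes were called. Whether these rates hold for the measured genes, such as those with few counts, was not tested.

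The share kept is the CPM at 24 h minus control over the CPM at 30 min minus control, within a culture, in percent. Named genes were the 12 largest rises and falls with a mean of at least 1 CPM and no overlap, the 6 early genes with the lowest and the 6 with the highest share kept, the 10 largest changes of each late class, up to 4 called members of each list and 9 fixed genes. The early genes, lists and rules were chosen with earlier results of these data known. Alternatives were no culture term, all 24 libraries, DESeq2 1.42.0, RLE size factors, no filter, the 24 h and 30 min libraries alone, each culture left out, and the cultures of each number, 1 or 2, that the descriptions of the control libraries bear. A few named genes are not reported here.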

Additional observations from a re-analysis of the deposited data

Results flagged for a closer look

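In 18 of 230 groups of 4 libraries, 1 library lay far from the other 3 of its group, a gap that chance gives in about 1 of 20 groups. Culture 4 was the highest of its group in 9 of them. Gad2 at 24 h had 672 CPM against 197 to 276 CPM in the other cultures. Vip had 15.9 CPM against 0.211 to 0.442 CPM at 24 h and 11.6 CPM against 0 to 0.0453 CPM at 30 min. Grin2d had 31.6 CPM against 8.297 to 10.97 CPM at 24 h and 51.8 CPM against 17.9 to 21.1 CPM at 30 min. Culture 4 also stood above the others for Cux2 at 30 min (57.3 CPM against 25.1 to 28.7 CPM), Cacnb3 at 24 h (83.3 CPM against 70.7 to 71.7 CPM), Gabrd at 24 h (8.19 CPM against 4.53 to 4.81 CPM) and Irf8 at 30 min (0.734 CPM against 0.1502 to 0.181 CPM).

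Culture 1 was the highest for Egr1 at 24 h (217 CPM against 145 to 154 CPM), Hmgcs1 at 30 min (2162 CPM against 1672 to 1734 CPM), Pla2g5 at 30 min (0.635 CPM against 0.09603 to 0.175 CPM) and Mmp3 at 30 min, where its 0.0453 CPM stood against 0 in the others. It was the lowest for Fosb at 30 min (193 CPM against 255 to 265 CPM) and Pnrc1 at 24 h (8.73 CPM against at least 9.83 CPM in the others). Culture 3 was the lowest for Kcnip4 at 24 h (4.56 CPM against 8.24 to 8.76 CPM) and Cacna1g at 30 min (46.9 CPM against 62.1 to 64.2 CPM), and culture 2 for Gimap6 at 30 min (0.288 CPM against 0.551 to 0.604 CPM).

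The change between 24 h and 30 min differed between KO and WT in 37 named genes by the interaction test in edgeR, as a log2 difference of KO minus WT, with a smaller change in KO in all 37. These genes were named largely for their changes in WT, which favours that direction. Over all genes tested, KO minus WT was positive in 200 and negative in 200 of the 400 differences. A smaller fall in KO counts as positive and a smaller rise as negative. This split therefore does not say whether changes were smaller in KO. Among early genes that fell, the differences were Fosb 3.16, Dnajb1 1.12, Nr4a1 2.33, Fos 1.93, Gadd45b 2.095, Ier5l 2.16, Egr4 2.39, Npas4 2.01, Egr3 2.16, Dusp1 1.03, Pnrc1 0.84, Junb 1.84, Ccn1 1.79, Btg2 1.82 and Mat2a 0.51. Among late falls they were Vcan 1.71, Pcsk2 1.07, Rbfox3 0.64, Ntrk2 0.45, Neurod2 1.02, Sv2b 1.02, Cacnb3 0.53, Col24a1 3.21, Slc6a11 0.68 and Glul 0.60. Among rises they were Emp1 -2.896, Bpifc -3.57, Hspa5 -0.67, Gimap6 -2.96, Akr1b8 -3.49, Etv5 -1.36, Galr1 -3.26, Spred3 -1.09, Nptx2 -1.75, Npy -1.202, Ptgs2 -1.82 and Peg10 -0.85. In Ier5l, Neurod2, Mat2a and Col24a1 the fitted change had opposite signs in KO and WT. The part of culture KO2D, of the KO control levels and of mitochondrial counts in these differences was not tested further than by leaving KO2D out.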

How the results depend on the processing

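DESeq2, RLE size factors and the 24 h and 30 min libraries alone left the counts of calls within 1.5 times of those reported, and no named gene changed direction where it was tested in 13 alternatives; Vip was not tested without culture 4 or in cultures 1 and 2 alone. Of 115 named genes past the threshold, 87 kept the call in all of them and 28 lost it in at least 1, of which 25 with all 24 libraries and no replicate block. In cultures 3 and 4 alone Irf8 (adjusted p = 0.162), Plaur (adjusted p = 0.0684) and mt-Nd4 (adjusted p = 0.0524) were among those that lost it. Bdnf passed when no filter on low counts was used (0.16, adjusted p = 0.0380). The cause of the changes below was not tested.

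Without the replicate block, 4584 genes changed between 24 h and 30 min (2407 higher, 2177 lower, against 3739 and 3514), and 75 in place of 183 between 30 min and control. The classes then held 32 genes that returned, 21 partly retained, 19 stayed, 3 rose further, 2111 late rises and 1825 late falls, and 35 genes in place of 400 differed between KO and WT. With all 24 libraries and the block, 2385 genes were higher, 98 changed at 30 min, and the classes held 32 returned, 27 stayed, 10 rose further and 2098 late rises. With all 24 libraries and no replicate block, 2699 genes changed (1327 higher, 1372 lower), 62 at 30 min and 3133 between 24 h and control, and the classes held 28 returned, 15 partly retained, 18 stayed, 1 rose further, 1169 late rises and 1158 late falls.

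With no filter, 309 genes changed at 30 min, 84 returned and 69 rose further. Cultures 1 and 2 alone gave 114 changes at 30 min, 27 stayed and 16 rose further. Cultures 3 and 4 alone gave 3535 changes since 30 min (1773 higher, 1762 lower), 81 at 30 min and 4485 between 24 h and control, with 30 returned, 23 partly retained, 23 stayed, 4 rose further, 1550 late rises and 1468 late falls. Leaving out 1 culture gave 5612 to 6618 changes since 30 min and 120 to 148 at 30 min. It gave 43 to 47 returned, 28 to 37 partly retained, 30 to 37 stayed, 16 to 30 rose further, 2437 to 2889 late rises and 2233 to 2740 late falls. Without KO culture KO2D, 743 genes differed between KO and WT. The median share of the rise kept was 54.3% to 64.5% without 1 culture.

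The p-values measure the spread, over 4 cultures, of the change within a culture, since the culture term takes out differences in level between cultures. Genes with few counts, such as Mmp3, Mmp10, Ifi204 and Gabre, rest on little depth at 30 min. The counts do not separate transcripts of a gene, and reads of near-identical copies cannot be told apart.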

Other observations

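Genes of the endoplasmic reticulum stress response were higher at 24 h as a group. The list of 28 genes, which encode its sensors, transcription factors, chaperones and folding enzymes, was drawn up after the values were seen, so its counts only describe. Of the 28, 27 were higher at 24 h than at 30 min, 0 were lower and 1 did not pass, against 23.5% higher over all genes, and the median change was 0.68. All 28 were higher than control at 24 h, as were 25.3% of all genes. Of the 28, 21 belong to the late rise class, as do 3213 of all 15892 genes tested. Their summed level was 5184 to 6173 CPM at 24 h, against 3524 to 4154 CPM at 30 min, with 3170 to 3691 CPM in control, so the 24 h libraries do not overlap the others. Ddit3, a transcription factor of the response, averaged 52.5 CPM at 24 h and 32.1 CPM at 30 min, and Dnajb9, a co-chaperone of BiP, 70.8 CPM at 24 h and 43.3 CPM at 30 min.

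Stat3, a signal transducer of cytokine receptors, was among the called members of the interferon list (1.06, adjusted p = 1.04e-09), while Stat2 of the interferon receptor pathway was lower (-0.19, adjusted p = 0.0172). Both were named after their values were seen.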
